A study of Mus musculus with 12 samples.

Results

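Glycolysis, glucose uptake and gluconeogenesis were followed through 32 genes that code for glucose carriers, the enzymes of glycolysis and their regulators, lactate dehydrogenases, pyruvate dehydrogenase kinases and the enzymes of glucose release. The members were chosen by name from a list of the pathway. They and the other lists used below were chosen with earlier results of these data known. Of the 32 members, 31 have a probe of their own name on the array, out of 27670 genes in all. These 31 genes are measured by 50 probes, 11 of them by more than 1 probe. The study isolated total RNA from heart and kidney of mice that lack mENT1, the equilibrative nucleoside transporter encoded by Slc29a1, and from wild type controls. Both genotypes have the FVB/N background. Each of the 4 groups (knockout heart, wild type heart, knockout kidney, wild type kidney) has 3 arrays, lettered a to c, and no other treatment or allele is named. The labels give neither the age nor the feeding state of the mice, and the samples differ in sex as read from the arrays: Xist signal was present on knockout heart a, knockout heart b and knockout kidney a.

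Glucose enters cells through carriers of the Slc2a family and is trapped by hexokinases, after which phosphofructokinase sets the pace of glycolysis and lactate dehydrogenase or pyruvate dehydrogenase takes the pyruvate. Gluconeogenesis runs the other way through its own enzymes, pyruvate carboxylase, phosphoenolpyruvate carboxykinase, fructose bisphosphatase and glucose 6-phosphatase. The heart takes up glucose as a fuel and mostly burns fatty acids, while the proximal tubule of the kidney, like the liver, makes and releases glucose.

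Promoter sequences are shown for 5 members on which the tissue difference or the knockout comparison turns: Hk2 and Pfkm, which were higher in heart, and Pcx, G6pc and Fbp1, which were higher in kidney. Each line is the 250 bases before a RefSeq start site, read 5′ to 3′ along the gene in build GRCm38.p6, and capitals mark matches to the motifs described after the sequences. Hk2 lies at chr6:82774455-82774704 on the minus strand, Pfkm at chr15:98092339-98092588 on the plus strand, Pcx at chr19:4510222-4510471 on the plus strand, G6pc at chr11:101367466-101367715 on the plus strand and Fbp1 at chr13:62888283-62888532 on the minus strand. The Pfkm line is 1 of 4 start sites in the table and the Pcx line 1 of 2, each printed because it holds the most matches of its gene. Another Pfkm start site, with its 250 bases at chr15:98108221-98108470, also holds a match. Which start site each tissue uses was not tested.
Hk2: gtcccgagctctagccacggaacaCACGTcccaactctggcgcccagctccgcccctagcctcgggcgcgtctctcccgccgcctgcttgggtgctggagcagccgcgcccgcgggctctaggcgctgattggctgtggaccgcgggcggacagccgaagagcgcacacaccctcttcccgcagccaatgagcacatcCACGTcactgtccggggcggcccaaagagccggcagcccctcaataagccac
Pfkm: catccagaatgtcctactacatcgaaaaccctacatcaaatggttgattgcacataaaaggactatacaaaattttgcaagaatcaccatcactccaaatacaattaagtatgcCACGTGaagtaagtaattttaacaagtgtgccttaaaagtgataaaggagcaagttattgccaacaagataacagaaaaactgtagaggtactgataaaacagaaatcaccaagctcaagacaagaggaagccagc
Pcx: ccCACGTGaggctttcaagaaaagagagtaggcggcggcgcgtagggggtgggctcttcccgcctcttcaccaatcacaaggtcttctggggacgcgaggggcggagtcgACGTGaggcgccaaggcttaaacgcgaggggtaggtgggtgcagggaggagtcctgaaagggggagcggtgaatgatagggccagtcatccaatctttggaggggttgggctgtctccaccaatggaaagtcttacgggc
G6pc: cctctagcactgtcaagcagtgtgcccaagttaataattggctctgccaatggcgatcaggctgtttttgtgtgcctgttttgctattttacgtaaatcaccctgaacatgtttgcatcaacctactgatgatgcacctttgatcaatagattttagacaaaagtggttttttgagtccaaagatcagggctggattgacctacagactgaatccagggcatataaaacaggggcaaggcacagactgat
Fbp1: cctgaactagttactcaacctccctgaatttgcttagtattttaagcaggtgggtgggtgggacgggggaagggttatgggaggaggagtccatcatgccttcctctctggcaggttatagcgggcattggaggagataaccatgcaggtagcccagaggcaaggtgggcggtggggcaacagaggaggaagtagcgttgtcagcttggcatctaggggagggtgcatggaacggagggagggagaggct

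Promoters of 31 members were matched by symbol to the RefSeq table, with 53 start sites among them, and Slc2a4 was not matched. The core of the hypoxia response element, ACGTG on either strand, was present before a start site of 13 of the 31 members (41.9%), against 18.5% of the 27025 genes in the table. The E-box CACGTG, each copy of which also holds ACGTG on both strands, was present in 7 of 31 members (22.6%), against 6.86% of all genes. Members with several start sites have more chances of a match, and by start site the shares were 32.1% against 16.6% for ACGTG and 13.2% against 6.02% for CACGTG. The ACGTG core did not sort the members by tissue: it was found in 4 of the 11 matched genes higher in heart (Hk2, Pfkfb2, Pfkm, Pkm), in 5 of 11 higher in kidney (Fbp2, Pcx, Pgam1, Pgk1, Slc2a1) and in 4 of the 9 others (Aldoa, Ldha, Pdk2, Pfkfb3). The cAMP response element TGACGTCA was found only before Ldha (1 of 31, 3.23%, against 1.77% of all genes) and the core of the MEF2 motif only before Ldhb (1 of 31, against 3.7%). A match is a description of these letters, and the absence of one says nothing of a factor's binding.

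Levels are given throughout as the log2 of the array's processed intensity minus the log2 of that array's 75th percentile, so that 0 is the 75th percentile of all spots. A level belongs to its probe, so levels are compared between arrays and not between genes. The 75th percentile itself lay between 464 and 940 intensity units on the 12 arrays, each of which carries 43379 spots for transcripts, and between 157 and 331 of these were saturated. A saturated spot has reached the scanner's limit, so a gene saturated on every array of a group has only a lower bound there. Slc29a1 was lower in both knockout tissues, at 0.47 to 1.43 in knockout hearts against 3.05 to 3.25 in wild type hearts and at -1.49 to -1.33 in knockout kidneys against 1.23 to 1.60 in wild type kidneys, as the labels have it. The 8 heart muscle markers were above background on all 6 heart arrays and the 12 proximal tubule markers on all 6 kidney arrays. In whole tissue, a change in the number of cells of a type and a change in RNA per cell cannot be told apart. The slides also matter: all 3 knockout hearts were on 1 slide and all 3 wild type hearts on another. In heart, slide and genotype therefore cannot be told apart, whereas 4 of the 6 kidney arrays (knockout b and c, wild type a and b) shared 1 slide. No slide held both wild type hearts and wild type kidneys, so slide and tissue cannot be told apart in the wild type comparison. Nothing in the labels beyond the design's 3 mice per genotype ties arrays to animals, and p-values measure the spread between these arrays. Knockout hearts a and b had Xist signal, but of the knockout kidneys only a did, and kidneys b and c had signal from 4 Y-linked probes. By these readings the knockout hearts and knockout kidneys, as labelled, cannot all be from the same 3 mice.

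**Figure D1:**
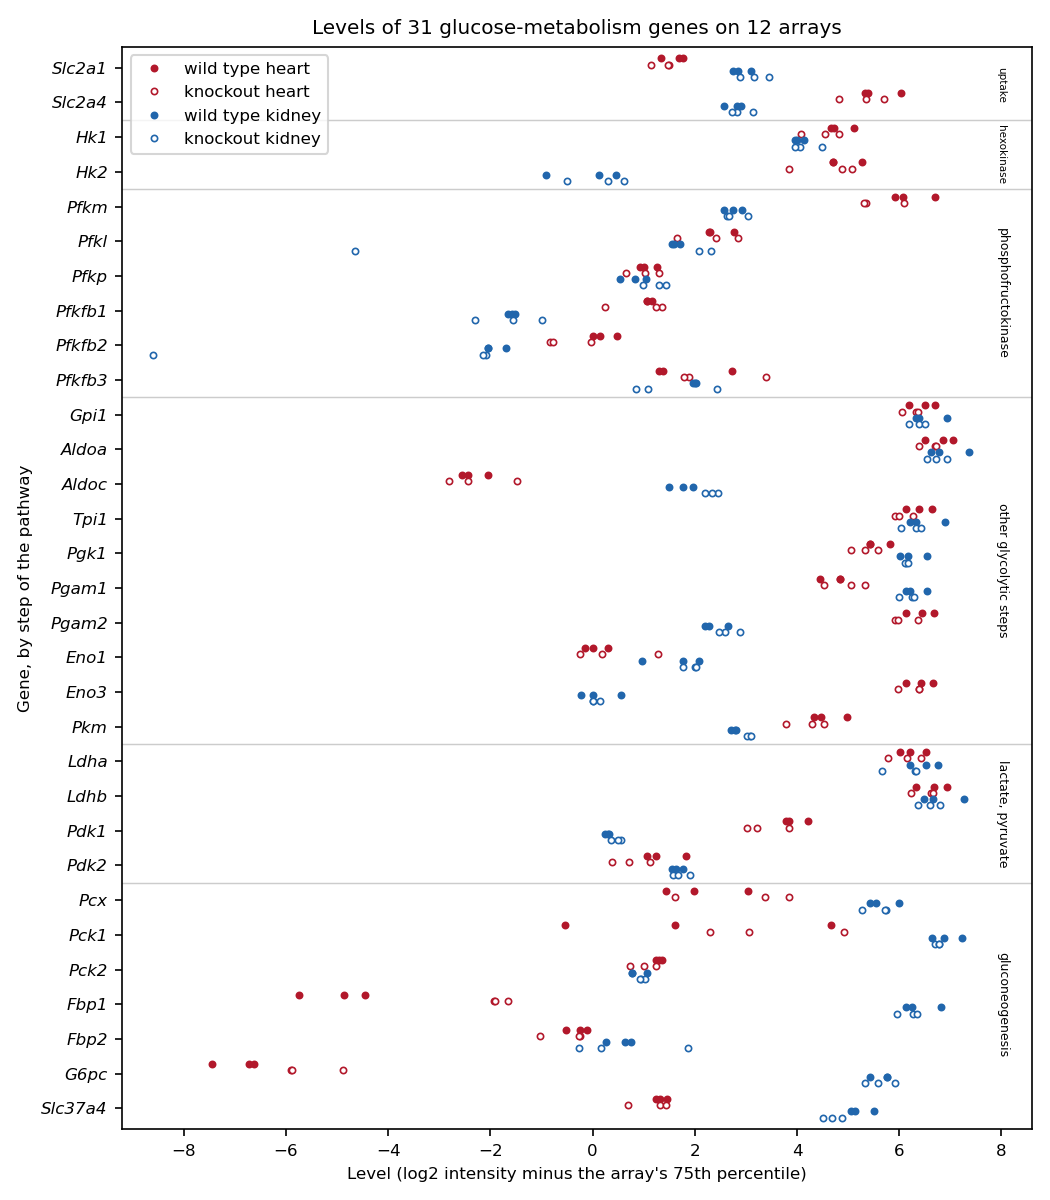
Level of each of the 31 members (rows, grouped by step) on each of the 12 arrays, in log2 intensity minus the array's 75th percentile; red marks heart, blue kidney, filled points wild type and open points knockout. Heart and kidney separate for most members, while knockout and wild type points of a tissue overlap for most. Fbp1, G6pc and Pfkfb2 in heart lie apart by genotype, of which only Fbp1 passed the test and G6pc entered it only through the knockout hearts. Single knockout kidney points of Pfkl and Pfkfb2 lie at -4.65 and -8.60.

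The isoforms that heart and kidney use were compared in the 6 wild type arrays. The heart was higher in the insulin-responsive carrier Slc2a4, in Hk2, in the muscle isoforms Pfkm, Pgam2 and Eno3 and in Pdk1, and the kidney was higher in the gluconeogenic genes G6pc, Fbp1, Pck1, Slc37a4 and Pcx and in Aldoc. Of the 31 members, 23 (74.2%) passed the test (limma, adjusted p under 0.05, Benjamini-Hochberg over 17985 genes), 12 higher in heart and 11 higher in kidney. Of all genes tested 64.9% passed, 32.3% higher in heart and 32.7% higher in kidney, so that the members' share is close to that of the array as a whole. The members' median difference was -0.12, against -0.01 over all genes. The groups did not overlap in 23 of 31 members and in 71.9% of all genes, and 13 of 31 members lay above 0 against 49.8% of all genes. The summed level of 13 skeletal muscle genes was 87.9 to 136 in wild type hearts and 2.53 to 3.32 in wild type kidneys. Their median varied between wild type hearts, from -3.03 to 1.83. The part of skeletal muscle RNA in the levels of the muscle isoforms was not tested.

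Both carriers differed between the tissues, in opposite directions. Slc2a4, the carrier that insulin moves to the surface of muscle and fat cells, was at 5.38, 5.33 and 6.03 in wild type hearts and at 2.90, 2.58 and 2.83 in wild type kidneys. Every heart array was above every kidney array, a 7.04-fold difference (log2 2.81 ± 0.22 SE, adjusted p = 2.56e-05 by limma). Slc2a1, the widely expressed basal carrier, was at 1.69, 1.35 and 1.77 in hearts and at 3.1, 2.85 and 2.75 in kidneys. It was 2.46-fold higher in kidney (log2 -1.30 ± 0.17, adjusted p = 0.000423).

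Both hexokinases, which trap glucose as its 6-phosphate, were higher in heart, by very different amounts. Hk2, the isoform typical of insulin-sensitive muscle, was at 4.71, 4.70 and 5.27 in wild type hearts and at 0.13, -0.91 and 0.46 in wild type kidneys. The difference was 32-fold (log2 5.0 ± 0.36, adjusted p = 1.73e-05). Hk1, the ubiquitous isoform, was 1.74-fold higher in heart (4.83 ± 0.24 against 4.04 ± 0.10, SD, n = 3; adjusted p = 0.00373).

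Among the genes of phosphofructokinase and of the bifunctional enzymes that make and remove its activator fructose 2,6-bisphosphate, 4 of 6 were higher in heart and none higher in kidney. Pfkm, the muscle subunit, was at 5.92, 6.08 and 6.70 in hearts and at 2.75, 2.93 and 2.58 in kidneys, an 11.2-fold difference (log2 3.48 ± 0.23, adjusted p = 1.02e-05). Pfkfb1, the isoform known from liver and muscle, was 6.42-fold higher in heart (1.09 ± 0.06 against -1.59 ± 0.07) and Pfkfb2, the heart isoform, 4.39-fold higher (0.21 ± 0.24 against -1.92 ± 0.21). Pfkl, the liver subunit, was higher in heart by 1.77-fold (2.45 ± 0.27 against 1.62 ± 0.09, adjusted p = 0.0041). Pfkp, the platelet subunit, and Pfkfb3, the inducible isoform, overlapped between the tissues on the probes used. Their differences were 0.26 (95% interval -0.16 to 0.68) and -0.20 (-1.07 to 0.68). Another Pfkp probe did not overlap, at -2.60, -2.71 and -2.34 in wild type hearts and -3.49, -3.31 and -3.44 in wild type kidneys. Its difference was 0.87 ± 0.15 SE. The remaining Pfkp probe overlapped, with a difference of 1.01 ± 0.61 SE. With the mean of the probes of each gene, Pfkp passed the test. Without wild type heart a, Pfkfb3 passed as higher in kidney (-0.66, adjusted p = 0.0103).

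Among the other steps of glycolysis, the isoform pairs of enolase and phosphoglycerate mutase ran in opposite directions. Eno3, the muscle enolase, was saturated on all 3 wild type hearts (6.42, 6.14 and 6.67) and at 0.01, 0.56 and -0.22 in kidneys, so that it was at least 78.3-fold higher in heart (adjusted p = 8.01e-07). Eno1, the widely expressed enolase, was at 0.30, -0.14 and 0.00 in hearts and at 2.09, 0.96 and 1.77 in kidneys, 2.93-fold higher in kidney (adjusted p = 0.00276). Pgam2, the muscle phosphoglycerate mutase, was likewise saturated on all 3 wild type hearts and was at least 16.5-fold higher there (6.42 ± 0.27 against 2.38 ± 0.24), while its partner Pgam1 was 2.99-fold higher in kidney (4.72 ± 0.23 against 6.30 ± 0.22). In both pairs no heart array overlapped a kidney array.

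Aldoc, the aldolase best known from brain, was at -2.05, -2.56 and -2.45 in hearts and at 1.96, 1.49 and 1.76 in kidneys, 17-fold higher in kidney (log2 -4.09 ± 0.19, adjusted p = 2.23e-06). Pgk1, phosphoglycerate kinase, was 1.61-fold higher in kidney (5.56 ± 0.22 against 6.25 ± 0.27, adjusted p = 0.0167), a call lost without wild type heart a (adjusted p = 0.0547) or wild type heart b (0.0631). Pkm, listed under its older name Pkm2 and coding for the muscle type of pyruvate kinase, was 3.55-fold higher in heart (4.59 ± 0.34 against 2.77 ± 0.05). Aldoa, Tpi1 and Ldhb were saturated on all 6 wild type arrays and Gpi1 on 5 of 6, so no fold can be given for these 4. Gapdh had no probe of its own name. A pair of probes that list its transcript together with near-identical copies lay between 5.14 and 7.03 on the 12 arrays, with heart and kidney overlapping, and are not counted.

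At the fate of pyruvate, Pdk1, a kinase that switches pyruvate dehydrogenase off, was at 3.78, 3.84 and 4.21 in hearts and at 0.31, 0.24 and 0.33 in kidneys, a 12.6-fold difference (log2 3.65 ± 0.16, adjusted p = 1.39e-06). Pdk2, the most widespread of these kinases, did not pass the test (1.38 ± 0.40 against 1.65 ± 0.11, adjusted p = 0.303), but passed as higher in kidney without wild type heart c (-0.50, adjusted p = 0.0318). Ldha, the lactate dehydrogenase subunit typical of glycolytic muscle, did not pass either, with a difference of -0.25 (95% interval -0.72 to 0.23).

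All 7 gluconeogenic members passed the test, 6 of them higher in kidney, where 64.9% of all genes passed and 32.7% were higher in kidney. G6pc, the catalytic subunit of glucose 6-phosphatase, was at -7.45, -6.62 and -6.73 in wild type hearts, where 2 of 3 arrays were above background, and at 5.75, 5.76 and 5.42 in wild type kidneys, a 6103-fold difference. Fbp1, the liver and kidney fructose bisphosphatase, was at -4.45, -4.87 and -5.74 in hearts and was saturated on all kidney arrays (6.26, 6.83 and 6.14), so it was at least 2752-fold higher in kidney. Slc37a4, which carries glucose 6-phosphate into the endoplasmic reticulum, was 14.9-fold higher in kidney (1.34 ± 0.11 against 5.24 ± 0.24), and Pcx, mitochondrial pyruvate carboxylase, 11.4-fold higher (2.15 ± 0.81 against 5.66 ± 0.30).

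Pck1, the cytosolic phosphoenolpyruvate carboxykinase, was at 6.88, 7.23 and 6.63 in wild type kidneys, saturated on 2 of these 3, but at 4.66, -0.54 and 1.61 in wild type hearts. The difference of -5.01 ± 1.16 (adjusted p = 0.00696) became -6.38 without wild type heart a and -3.78 without wild type heart b. Fbp2, the muscle fructose bisphosphatase, was 1.80-fold higher in kidney than in heart (-0.29 ± 0.20 against 0.55 ± 0.26, adjusted p = 0.00543). Pck2, the mitochondrial carboxykinase, was the member of this group that was higher in heart, by 1.34-fold (1.29 ± 0.06 against 0.87 ± 0.17, adjusted p = 0.032). That call was lost under several settings, among them scaling to the median (adjusted p = 0.178) and leaving out any 1 array except wild type kidney b (0.0510 to 0.107).

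**Figure D2:**
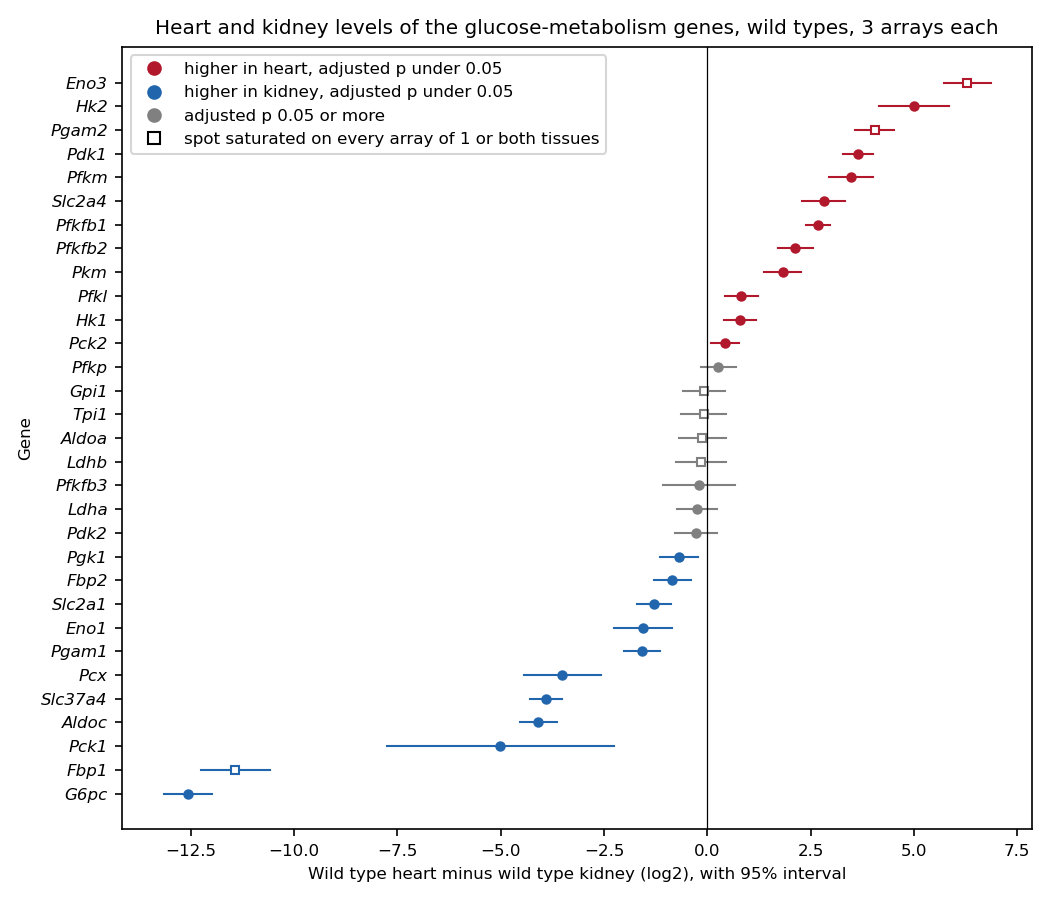
Difference between wild type heart and wild type kidney for each member in log2, with its 95% interval, ordered by size; red and blue points passed the test in either direction, grey ones did not, and open squares mark spots saturated on every array of 1 or both tissues. Eno3 and Hk2 lie far to the heart side at 6.29 and 5.0 and G6pc and Fbp1 far to the kidney side at -12.58 and -11.43, and the order of the saturated genes rests on lower bounds.

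Genes around the pathway were counted from lists of their own, to be read against the 32.3% of all genes higher in heart and 32.7% higher in kidney. Of 21 other isoforms and carriers tested, 5 were higher in heart and 11 higher in kidney. The kidney side was led by the sodium-glucose carrier Slc5a2 (2589-fold), the carrier Slc2a2 (299-fold) and the fructose carrier Slc2a5 (228-fold), and the heart side included Hk3 (6.83-fold) and Tigar (5.96-fold). Of 13 genes of pyruvate dehydrogenase and the pyruvate and lactate carriers, 9 were higher in heart, led by Pdk4 (13.4-fold), the lactate carrier Slc16a3 (5.60-fold) and Slc16a1 (4.65-fold), and 2 were higher in kidney, Slc16a7 (9.55-fold) and Pdk3 (8.53-fold). Of 16 glycogen genes, 8 were higher in heart, led by muscle phosphorylase Pygm (132-fold), Pygb (25.3-fold) and Phkg1 (at least 10.8-fold), and 1, Phkg2, was higher in kidney.

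Of 11 genes of the pentose phosphate and fructose routes, none was higher in heart and 9 were higher in kidney, led by Tkfc (46.6-fold), ketohexokinase Khk (at least 20.7-fold) and H6pd (5.55-fold). Of 23 regulators of glucose metabolism, 9 were higher in each tissue: Egln3 (14-fold), Egln1 and Tbc1d4 led in heart, and Hnf4a (at least 1463-fold), Tbc1d1 and Mlxipl in kidney. Of 11 hypoxia targets outside glycolysis, 6 were higher in heart, led by Ankrd37 (10.4-fold), Higd1a and P4ha2, and 2 in kidney, Ndrg1 (at least 7.85-fold) and Car9 (7.66-fold). Of 12 genes that respond to fasting or PPAR alpha, 3 were higher in heart, among them Ucp3 (16.4-fold) and Fgf21 (2.74-fold), and 8 in kidney, led by Igfbp1 (at least 655-fold), Cyp4a14 (103-fold) and Cyp4a10 (46.2-fold).

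The knockout was compared with wild type first in the 6 heart arrays. A single member passed the test: Fbp1 was higher in knockout hearts. It was at -1.66, -1.93 and -1.92 there and at -4.45, -4.87 and -5.74 in wild type hearts, so the groups did not overlap and the difference was 9.1-fold (log2 3.19 ± 0.33, adjusted p = 0.0187, limma over 17483 genes). That is 1 of 31 members (3.23%), against 0.618% of all genes tested, 0.532% higher and 0.0858% lower in the knockout. With the letter as a block, 69 genes passed in place of 108 and Fbp1 among them. The knockout heart level of Fbp1 remained far below that of kidney, where it was saturated.

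The Fbp1 call was lost when any 1 of 3 arrays was left out, at differences close to the one above. Without knockout heart a the adjusted p was 0.0971, without knockout heart b 0.0642 and without wild type heart b 0.0977, at differences of 3.1, 3.23 and 3.26. With sex as a covariate the difference was 3.1 (adjusted p = 0.119), but that fit rests on knockout heart c, the single knockout heart without Xist signal, and so does not test a dependence on sex. Without knockout heart c, 3 members passed: Fbp1, Pdk1 (-0.82, adjusted p = 0.0469) and Pfkfb2 (-1.01, adjusted p = 0.0277), among 2085 genes in place of 108. Knockout hearts a and b, left in that fit, both had Xist signal and no wild type heart did. These arrays also held the high thymus, lymphocyte and cell cycle levels given below. Sex, these levels and genotype cannot be told apart there.

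Liver markers moved with Fbp1, and some other marker lists also differed between the hearts. Of 14 liver genes on the array 13 were tested in heart, and 10 of these passed the test, all higher in knockout hearts. Only 8 of the 13 were above background on all wild type hearts too, and 5 of these 8 passed, while the other 5 entered through the knockout hearts alone. Neither Fbp1 nor G6pc is on that list. The median level of the list was -2.20, -2.16 and -1.45 on the 3 knockout hearts and -4.44, -4.98 and -5.33 on the 3 wild type hearts, without overlap. Its summed level, in multiples of the 75th percentile, was 11.2 to 17.7 against 9.87 to 11.9, which overlap, and 13 of 14 genes were above background on each knockout heart against 8 to 12 on the wild type hearts. Albumin (Alb) differed by 3.56 and the fatty acid binding protein Fabp1 by 4.04. The median of 7 red cell precursor genes was -3.24, -2.49 and -3.58 on the knockout hearts and -6.18, -6.69 and -6.70 on the wild type hearts, with 6 and 3 of the 7 above background on each. Their summed level overlapped (114 to 189 against 121 to 185) and 1 of the 6 tested passed. Only 3 of these 6 were above background on all wild type hearts too, and 0 of these 3 passed, while the other 3 entered through the knockout hearts alone. The summed level of the thymus and lymphocyte genes was 98.7 and 204 on knockout hearts a and b and 1.30 to 1.89 on the other 4 hearts, that of cell cycle genes 21.8 and 43.1 against 3.05 to 4.26, and that of lung genes 192 on knockout a against 0.128 to 1.42. Proximal tubule markers had medians of -5.68 to -5.60 in knockout and -6.36 to -5.59 in wild type hearts, with 7 to 8 and 5 to 8 of 12 genes above background and summed levels of 6.23 to 11.8 and 1.99 to 9.48. None of the 7 tubule genes tested passed, 6 of them above 0. In kidney, the liver median was -2.48 to -1.24 on knockout and -3.63 to -2.87 on wild type arrays, also without overlap. None of the 12 liver genes tested there passed, with 9 above 0 against 40.1% of all genes. Above background were 12 to 14 of the 14 on knockout kidneys and 10 to 12 on wild type kidneys. Their summed level overlapped (8.25 to 11.6 against 7.23 to 11.3). The part of RNA from other tissues in the Fbp1 difference was not tested.

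**Figure D3:**
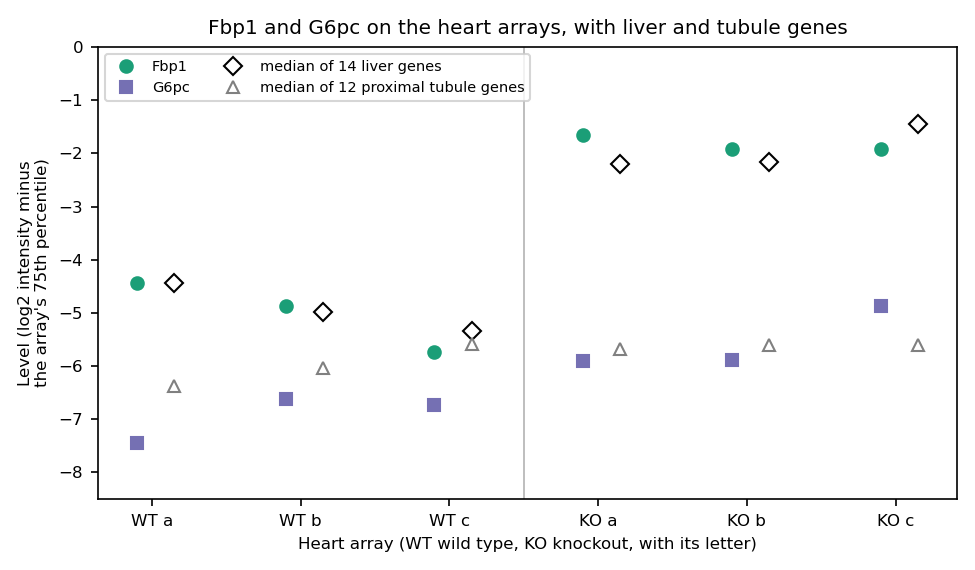
Levels of Fbp1 and G6pc on the 6 heart arrays, with the median of 14 liver genes and of 12 proximal tubule genes on each array, in log2 intensity minus the array's 75th percentile. Fbp1 and the liver median are higher on all 3 knockout arrays than on any wild type array, and the tubule median lies between -6.36 and -5.59 on all 6.

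G6pc did not pass the test in heart, and its groups did not overlap. It entered the comparison only through the knockout hearts, where it is higher, so neither this nor its unadjusted p is support for a difference. It was at -5.90, -5.89 and -4.88 in knockout hearts, above background on 3 arrays, and at -7.45, -6.62 and -6.73 in wild type hearts (difference 1.38 ± 0.36, adjusted p = 0.203). In all, 3 of 31 members had an unadjusted p under 0.05 (Fbp1, G6pc and Pfkfb2), against 16% of all genes, and the same 3 were without overlap, against 22.7% of all genes. Pfkfb2 was at -0.83, -0.77 and -0.04 in knockout hearts and at 0.01, 0.15 and 0.48 in wild type hearts (difference -0.76 ± 0.26, adjusted p = 0.274).

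The other gluconeogenic members did not pass, and Pck1 and Pcx varied between arrays of 1 genotype by more than they differed between genotypes. Pck1 was at 4.93, 2.31 and 3.06 in knockout hearts and at 4.66, -0.54 and 1.61 in wild type hearts, so that knockout a and wild type a were the highest and wild type b the lowest. Pcx was at 3.84, 1.61 and 3.38 against 3.04, 1.45 and 1.98. Their differences were 1.52 ± 1.35 and 0.79 ± 0.66, with adjusted p of 0.547 and 0.526.

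The adipocyte list moved with these genes from array to array. The summed level of its 8 genes, all above background on every array, was 345, 110 and 219 in the knockout hearts (a to c) and 295, 32.3 and 73.3 in the wild type hearts (a to c). The 6 arrays fall in the same order by this sum and by Pck1. Pfkfb3 shared the highest pair of arrays, at 3.39 on knockout a and 2.72 on wild type a against 1.29 to 1.89 on the other four (difference between genotypes 0.55 ± 0.56, adjusted p = 0.593). Within each of the 3 letters Pfkfb3 was higher in the knockout, as were Pgam1, Pcx, Pck1, Fbp1 and G6pc. Pfkfb3 did not pass with the letter as a block. The part of adipocyte RNA in these levels was not tested.

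**Figure D4:**
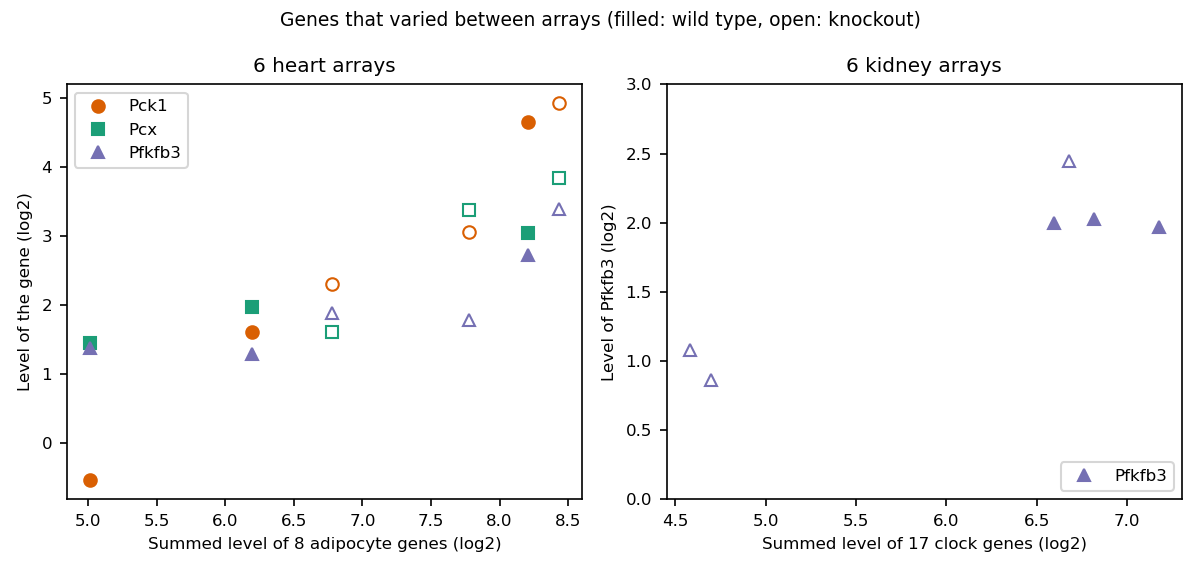
Left, level of Pck1, Pcx and Pfkfb3 on the 6 heart arrays against the log2 summed level of 8 adipocyte genes; right, level of Pfkfb3 on the 6 kidney arrays against the log2 summed level of 17 clock genes; filled points are wild type and open points knockout. In heart, knockout a and wild type a are highest for Pck1 at 4.93 and 4.66, and in kidney, knockout b and c stand apart at 1.08 and 0.86.

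The glycolytic members differed little between the heart genotypes. Across the module 23 of 31 members lay below 0, with a median of -0.21 against -0.08 over all genes, of which 41.6% lay above 0. Pfkm was at 5.34, 5.31 and 6.10 against 5.92, 6.08 and 6.70 (difference -0.65 ± 0.30, adjusted p = 0.332), Pdk2 differed by -0.65 ± 0.27 (0.313) and Pdk1 by -0.58 ± 0.25 (0.317). Knockout c overlapped the wild types for all 3 of these genes, and knockout a and b lay below them. Against the wild type heart of the same letter, all 3 knockouts were lower for Pfkm, Pdk1 and Pdk2, and none of these passed with the letter as a block either. This was not particular to them: Slc2a1, Slc2a4, Hk1, Pfkfb2, Tpi1, Pgk1, Pgam2, Pkm and Ldha were also lower within every letter. Pfkfb3, Pgam1, Pcx, Pck1, Fbp1 and G6pc were higher within every letter. The share of all genes that do so was not counted. By array, 27 of 31 members on knockout b lay under the median of the other 5 hearts, 16 on knockout a and 5 on knockout c, with 23, 13 and 9 on wild type b, a and c. Over all probes the shares were 61.8% on knockout b, 62.1% on knockout a and 43.7% on knockout c, and 38.8%, 49% and 44.6% on wild type b, a and c. The summed level of 13 skeletal muscle genes was 57.7 to 103 in knockout hearts and 87.9 to 136 in wild type hearts. Of the 11 tested, 10 lay below 0 and none passed, with a median of -1.51. The part of skeletal muscle RNA in the heart differences of the members was not tested.

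The 2 carriers and the 2 hexokinases differed by -0.23 (Slc2a1), -0.29 (Slc2a4), -0.35 (Hk1) and -0.29 (Hk2), with 95% intervals that include 0, such as -1.16 to 0.57 for Hk2. Of the phosphofructokinase group, Pfkl differed by -0.14, Pfkp by -0.07 and Pfkfb1 by -0.14. Of the later steps, Pkm differed by -0.40, Tpi1 and Pgam2 by -0.33, Pgk1 by -0.24, Gpi1 and Aldoa by -0.21, Eno3 by -0.15, Aldoc by 0.11, Pgam1 by 0.26 and Eno1 by 0.35. Eno3 and Aldoa were saturated on all 6 heart arrays and Gpi1, Tpi1 and Pgam2 on all wild type hearts, which limits any difference there. Ldhb, also saturated on all 6, differed by -0.15, Ldha by -0.13, Slc37a4 by -0.19, Fbp2 by -0.22 and Pck2 by -0.30. Adjusted p-values for the 30 members that did not pass ran from 0.203 to 0.872.

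In the surrounding lists no gene passed the test in heart. The count above 0, against 41.6% of all genes, was 2 of 13 for the pyruvate dehydrogenase list, 3 of 16 for glycogen, 5 of 23 for regulators, 3 of 11 for hypoxia targets, 6 of 19 for other isoforms, 6 of 11 for pentose phosphate and fructose and 5 of 11 for fasting genes. Their medians lay between -0.32 and 0.11. At an unadjusted p under 0.05 there were between 1 and 3 genes in each of these 7 lists, against 16% of all genes.

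In kidney none of the 31 members passed the test (limma, 17228 genes), where 12 genes passed over the whole array (0.0697%), 0.0174% higher and 0.0522% lower in the knockout. At an unadjusted p under 0.05 there were 2 members, Aldoc and Slc37a4, against 13.3% of all genes, and the groups did not overlap in 5 members against 21.7% of all genes. The median of the members was -0.03, against -0.08 over all genes, and 14 of 31 lay above 0 against 40.1% of all genes.

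Aldoc was at 2.46, 2.20 and 2.35 in knockout kidneys and at 1.96, 1.49 and 1.76 in wild type kidneys, each knockout array above each wild type array (difference 0.60 ± 0.18, adjusted p = 0.234). Its second probe differed by -0.01. Slc37a4 was at 4.51, 4.70 and 4.88 against 5.14, 5.51 and 5.06, again without overlap (difference -0.54 ± 0.19, adjusted p = 0.297). Pkm (0.30 ± 0.14) and Pdk1 (0.18 ± 0.14) were also without overlap, with adjusted p of 0.411 and 0.607.

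A pair of phosphofructokinase genes was set by single spots. Pfkl was at -4.65 on knockout kidney a and at 2.08 and 2.32 on the other knockout kidneys, against 1.55, 1.59 and 1.72 in wild types. Pfkfb2 was at -8.60 on knockout kidney a and between -2.14 and -1.69 on the other 5 kidneys. On that array 213 spots were over 16-fold dimmer than on all 5 other kidneys, 137 of them within areas of such spots, against 0 or 1 on each other array. The other 3 probes of Pfkfb2 lay between -4.77 and -3.79 there and between -5.34 and -3.81 on the other 5 kidneys. Their knockout differences in kidney were 0.37, 0.24 and 0.53, opposite in sign to that of the probe used. With those spots left out, an alternative chosen after seeing the data, Pfkl differed by 0.58 (adjusted p = 0.256) in place of -1.70 ± 1.77, and Pfkfb2 by -0.19 in place of -2.35 ± 1.68.

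Pfkfb3 divided the knockout kidneys. It was at 1.08 and 0.86 on knockout b and c and at 2.44 on knockout a, while the wild types lay at 2.03, 1.97 and 2.0 (difference -0.53 ± 0.41, adjusted p = 0.601). The summed level of 17 clock genes was 23.9 and 25.9 on knockout b and c, 102 on knockout a and 96.8 to 144 on the wild type kidneys. Fbp2 was likewise highest on knockout a, at 1.87, with 0.16 on knockout b and -0.28 on knockout c, against 0.64, 0.76 and 0.26. The part of the clock genes, of sex or of the slide in these values was not tested.

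Of the other glucose-releasing genes of the kidney none passed the test. G6pc was at 5.58, 5.33 and 5.92 in knockout and at 5.75, 5.76 and 5.42 in wild type kidneys, a difference of -0.03 with a 95% interval of -0.52 to 0.46. Pcx differed by -0.08 (-0.62 to 0.45), Pck1, saturated on 2 of 3 arrays of each group, by -0.16 and Pck2 by 0.10 (-0.27 to 0.47). Fbp1 was saturated on all 6 kidney arrays, so its difference of -0.22 has no fold.

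Of the other members in kidney, Slc2a1 differed by 0.27, Slc2a4 by 0.13, Hk1 by 0.13, Hk2 by 0.24, Pfkm by 0.03, Pfkp by 0.44 and Pfkfb1 by -0.02. Pgk1 differed by -0.10, Pgam1 by -0.11, Pgam2 by 0.27, Eno1 by 0.32, Eno3 by -0.06, Ldha by -0.40, Pdk2 by 0.06 and Fbp2 by 0.03. Gpi1, Aldoa, Tpi1 and Ldhb lay between -0.21 and -0.18 on spots saturated on 5 or 6 of the 6 arrays. Adjusted p-values over the 31 members ran from 0.234 to 0.984. In the 7 surrounding lists no gene passed either, with medians between -0.20 and 0.06 and 0 to 4 genes each at an unadjusted p under 0.05, against 13.3% of all genes.

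**Figure D5:**
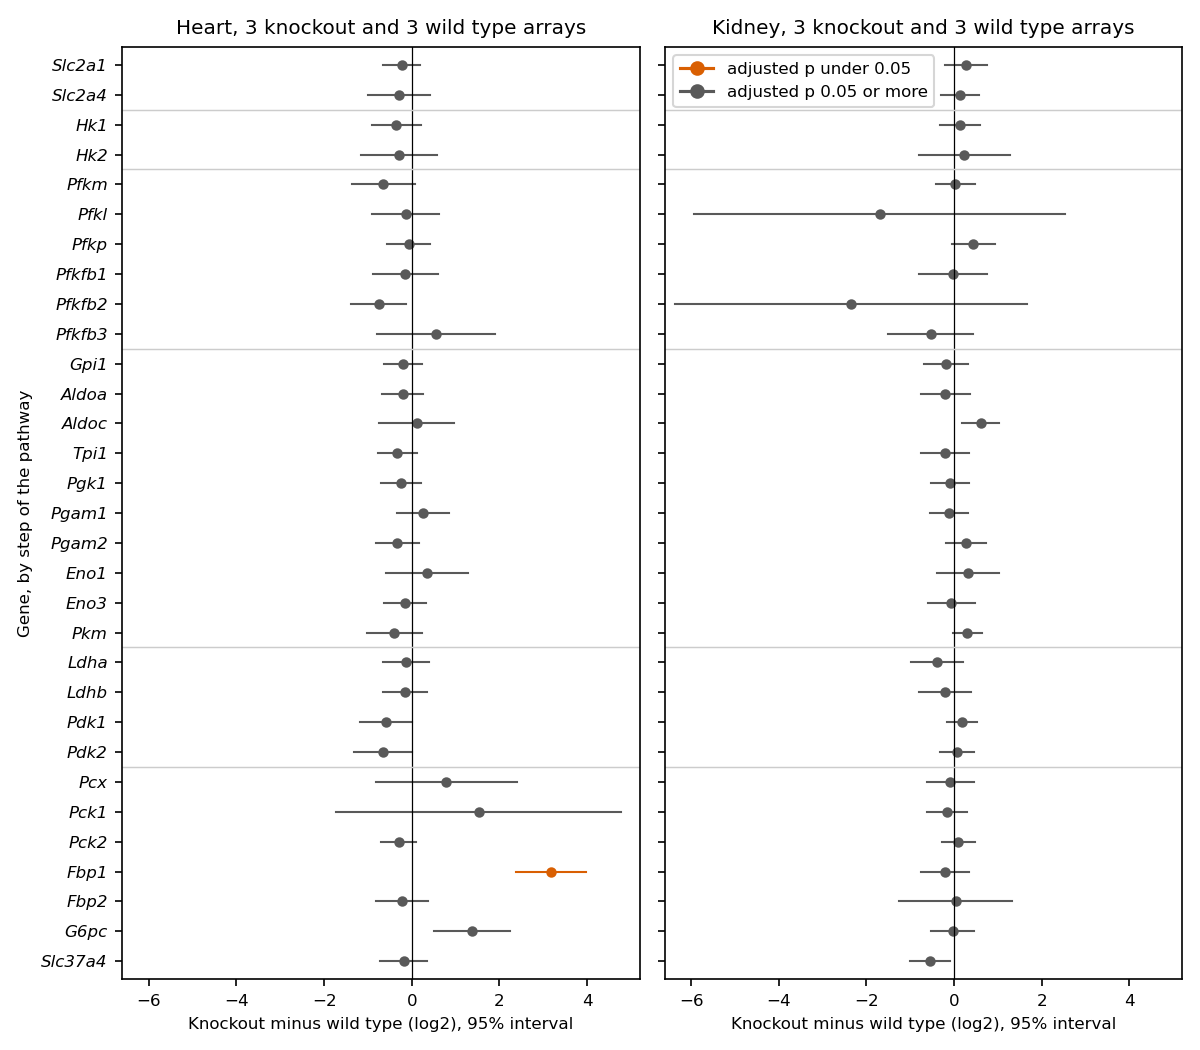
Knockout minus wild type for each member in heart (left) and kidney (right), in log2 with 95% intervals, genes ordered by step; the orange point passed the test. Fbp1 in heart stands at 3.19, and the wide kidney intervals of Pfkl and Pfkfb2 come with the values of -4.65 and -8.60 on knockout kidney a.

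The 2 tissues were compared through the heart difference minus the kidney difference, fitted over all 12 arrays. Fbp1 alone of the 31 members passed (3.40 ± 0.43, adjusted p = 0.00974), against 0.627% of the 18502 genes tested (0.557% upward and 0.0703% downward). Its kidney side rests on spots saturated on all 6 arrays, so that a change in kidney could not be measured and the value does not show that the tissues differ. The call was lost with the letter as a block (adjusted p = 0.0627), with slide as a random block (0.0539) and with normexp background correction (2.23, adjusted p = 0.654). G6pc differed by 1.41 ± 0.44 (adjusted p = 0.200), Pdk1 by -0.76 ± 0.29 (0.272) and Pkm by -0.70 ± 0.30 (0.320), the 3 other members with an unadjusted p under 0.05, against 14.6% of all genes. Pdk1 passed when knockout heart c was left out (-1.0, adjusted p = 0.0262), which leaves only knockout hearts with Xist signal.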

How the data were processed

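Total RNA (Trizol and RNeasy, per the labels' protocols) was labelled with Cy3 and hybridised to 12 Agilent 1-colour arrays. Per the file headers, the scanner files hold intensity values from Agilent Feature Extraction 9.5.3.1 (9.1 in the submitters' processing notes), background-subtracted and detrended within each array. Levels are log2(processed intensity) minus the array's 75th percentile, without non-uniform and outlier spots. A probe entered a comparison if well above background on all 3 arrays of a group, and the probe with the highest mean over 12 arrays stood for its gene. Groups were compared with limma 3.58.1 in R 4.3.3 and Benjamini-Hochberg adjustment over all genes, within the 6 arrays concerned or all 12 for the tissue difference. The fit was checked on simulated data. Alternatives were other scalings, normexp background (offset 50), filters, probe rules, blocks by letter and slide, sex, the deposited table and each array left out.

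The deposited table of processed values is log2, centred per gene within a tissue, by comparison with the arrays, and how the authors scaled it is not given in the sources used here (column medians -0.176 to 0.199). Each of its 12 columns followed (r of at least 0.9998) the array of the same tissue and letter but the other genotype. The labels of the scanner files were kept, under which Slc29a1 is lower in the knockouts.

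Same-letter knockout and wild type hearts deviated together (r = 0.335, 0.151 and 0.256), against at most 0.0392 for hearts of other letters. This pattern comes from the data, not from the labels, and what the hearts of a letter share was not tested. All members are named whatever their value, and of each surrounding list up to 3 genes per direction that passed. Some genes that this rule would name are not reported here. The members and lists were chosen with earlier results of these data known. Probes were named through RefSeq (22951 by accession, 6659 by symbol, 3109 by synonym), and 8455 kept the file's name.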

Additional observations from a re-analysis of the deposited data

Results flagged for a closer look

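The fitted knockout difference of Fbp1 in heart minus that in kidney was 3.40 on the log2 scale (limma over all 12 arrays, adjusted p = 0.00974). In heart all 3 knockout arrays lay above all 3 wild type arrays, while the kidney spots of Fbp1 were saturated on all 6 arrays, so a kidney difference could not be measured and the value does not show that the tissues differ.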

How the results depend on the processing

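Heart members called were 1, but 0 with sex as a covariate, 0 on the arrays without Xist signal and 0 to 3 with 1 array left out. Members called in the tissue difference were 1, but 0 with normexp, 0 with the replicate block, 0 with slide as a random block, 0 on the arrays without Xist signal and 1 to 2 with 1 array left out. The kidney members' median was -0.03, and -0.22 with normexp. With sex in the heart fit, and without the Xist arrays, knockout heart c is the only knockout heart, assumed to vary like the other arrays, so these calls lost do not show a dependence on sex. No direction of a called member reversed. In the wild type comparison 20 to 24 members were called over all settings, against 23. The block by letter called 22, losing Pck2, and same-letter arrays did not deviate together there. With all 12 arrays in 1 fit Pfkl, Pfkfb2 and Fbp2 were lost.

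Over all genes, the heart comparison called 108, against 66 with quantile scaling, 16 with normexp, 55 without a filter, 22 with the strict filter, 206 with all 12 arrays, 69 with the replicate block, 43 without the Xist arrays and 15 to 2085 with 1 array left out (knockout a 45, b 50 and c 2085, wild type b 15 and c 30). The kidney comparison called 12, against 25 with quantile scaling, 88 with median scaling, 0 with normexp, 4 without a filter, 40 with probe means, 77 with all 12 arrays, 2 with the replicate block (r by letter 0.169, 0.0498 and -0.176, so same-letter kidneys did not all deviate together), 166 with slide as a random block, 255 within the shared slide, 90 with sex or without the Xist array, 74 without the dim spots and 1 to 90 with 1 array left out (knockout a 90, b 5 and c 86, wild type a 1, b 2 and c 1). The tissue difference called 116, against 0 with normexp, 76 without a filter, 45 with the strict filter, 18 with the replicate block, 16 with slide as a random block and 22 to 1290 with 1 array left out (knockout hearts a 55, b 66 and c 1290, wild type hearts b 22 and c 35, knockout kidney b 46, wild type kidneys a 62 and b 31). The cause of these shifts was not tested.

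Median scaling moved the median of all genes in heart from -0.08 to -0.26. Slide could not be fitted in heart, where it equals genotype. The probe chosen within a comparison and the dim spots left out were alternatives chosen after seeing the data. The number of arrays limits the precision. Saturation hides differences in Aldoa and Ldhb and, on most arrays, in Tpi1 and Gpi1. It also hides those in Eno3 and part of Pgam2 in heart, and those in Fbp1 and part of Pck1 in kidney.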
